A study of Homo sapiens with 8 samples.

Results

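The 8 loci described here are the surroundings of the start sites of PAX1, PAX2, PAX3, PAX5, PAX6, PAX7, PAX8 and PAX9. Members were the CpGs within 5000 bases of 1 start site per gene (genome build hg19). Of 1123 such CpGs listed in any library, 973 were listed in all 8 and were used, against 2423167 autosomal CpGs listed in all 8 libraries. The cells were HUES64, an established human embryonic stem cell line, and all libraries carried the same genotype, a knockout of DNMT3A and DNMT3B labelled DNMT3A/3B DKO. These enzymes add methyl groups to unmethylated CpGs, whereas DNMT1 copies existing methylation after replication. CpG methylation was measured by reduced representation bisulfite sequencing (RRBS), which reads CpG-rich fragments after unmethylated cytosines have been converted, at passages 6, 7, 8, 11, 13, 17, 27 and 28, 1 library per passage. Unedited cells were not analysed here, and whether the passages follow 1 clone or culture is not stated in the labels. No RNA was measured, so neither the expression of PAX genes nor the markers of the labelled cell type could be examined.

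PAX genes encode transcription factors with a paired domain that set tissue identity in the embryo. In vertebrates they fall into subfamilies: PAX1 and PAX9 act in the skeleton and the pharyngeal pouches, PAX2, PAX5 and PAX8 in kidney, B cells and thyroid, PAX3 and PAX7 in neural crest and skeletal muscle, and PAX6, with PAX4, in eye, brain and pancreas. In pluripotent cells the start sites of such developmental regulators typically lie in broad CpG-rich domains that are held silent by Polycomb proteins and lack DNA methylation.

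The start regions themselves show the CpG-rich sequence that was measured. RefSeq promoters (GRCh38.p14, 250 bases before to 50 after a start) were held for 7 of the 8 genes, and 6 of 17 sequences could be placed on the hg19 CpGs, because all of at least 8 listed CpGs fell on a CG of the sequence at 1 position only. Those of PAX2, PAX3, PAX5 and PAX7 are shown because they place measured CpGs in a RefSeq promoter of each gene. That of PAX6 is shown because the start site used here lies between annotated starts. CGs measured in all 8 libraries were 11 in PAX2, 15 in PAX3, 6 in PAX5, 7 in PAX7 and 9 in PAX6. In PAX5 and PAX7 they all lie upstream of the RefSeq start, with none at the start itself. Capitals mark CGs measured in all 8 libraries.
PAX2, chr10:100745332-100745631 (GRCh38.p14, plus strand): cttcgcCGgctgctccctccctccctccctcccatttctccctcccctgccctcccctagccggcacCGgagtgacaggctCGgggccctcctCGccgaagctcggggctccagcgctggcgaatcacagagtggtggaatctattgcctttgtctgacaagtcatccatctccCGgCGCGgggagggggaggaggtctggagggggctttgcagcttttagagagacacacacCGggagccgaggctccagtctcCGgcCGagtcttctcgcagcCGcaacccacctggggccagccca
PAX3, chr2:222298949-222299248 (GRCh38.p14, minus strand): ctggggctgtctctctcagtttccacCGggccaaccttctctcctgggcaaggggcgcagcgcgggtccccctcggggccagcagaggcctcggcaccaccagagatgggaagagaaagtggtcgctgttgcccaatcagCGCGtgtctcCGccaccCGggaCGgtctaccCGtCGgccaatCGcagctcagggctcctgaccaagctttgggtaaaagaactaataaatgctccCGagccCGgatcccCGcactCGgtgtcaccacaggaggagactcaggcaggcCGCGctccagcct
PAX5, chr9:37034219-37034518 (GRCh38.p14, minus strand): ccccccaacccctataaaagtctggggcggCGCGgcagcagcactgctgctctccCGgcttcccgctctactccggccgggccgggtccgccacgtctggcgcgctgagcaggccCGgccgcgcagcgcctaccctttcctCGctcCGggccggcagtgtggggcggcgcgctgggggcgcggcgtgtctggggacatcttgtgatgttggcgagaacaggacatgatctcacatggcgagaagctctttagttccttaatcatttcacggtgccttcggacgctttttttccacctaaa
PAX7, chr1:18630596-18630895 (GRCh38.p14, plus strand): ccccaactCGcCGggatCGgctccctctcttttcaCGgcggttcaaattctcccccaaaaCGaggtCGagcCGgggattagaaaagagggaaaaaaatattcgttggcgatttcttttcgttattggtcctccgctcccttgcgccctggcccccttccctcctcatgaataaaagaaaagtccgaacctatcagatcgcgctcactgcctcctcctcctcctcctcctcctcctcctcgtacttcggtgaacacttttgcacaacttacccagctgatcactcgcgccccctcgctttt
PAX6, chr11:31809910-31810209 (GRCh38.p14, minus strand): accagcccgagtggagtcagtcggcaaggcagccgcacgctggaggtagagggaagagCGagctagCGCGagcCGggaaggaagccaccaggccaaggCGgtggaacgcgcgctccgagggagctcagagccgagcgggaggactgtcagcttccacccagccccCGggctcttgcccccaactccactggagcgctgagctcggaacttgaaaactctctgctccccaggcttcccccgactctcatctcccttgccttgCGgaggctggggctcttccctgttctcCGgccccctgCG
They hold 19 CGs in PAX2, 21 in PAX3, 30 in PAX5, 21 in PAX7 and 22 in PAX6, against a median of 14 over the 35116 promoters of the table, of which 41.2% hold 20 or more. Placing a sequence needed 8 listed CpGs, which favours CG-rich ones, so the counts describe these sequences only. Each also holds the letters CCGG, the same on both strands, which the enzyme MspI of common RRBS protocols cuts and which 63.1% of all promoters in the table hold. Counted from the start sites used here, the RefSeq starts lay 129 bases upstream in PAX2, 2 upstream in PAX3, 211 downstream in PAX5 and 160 upstream in PAX7. In PAX6 the printed sequence belongs to a start 1394 bases downstream, and another placed RefSeq start lies 1367 bases upstream. In the PAX3 sequence 15 CGs were measured, with 0 methylated among 2051 reads over all libraries (Wilson 95% interval up to 0.187%). The PAX6 sequence had 0 methylated among 1376 reads, PAX5 0 among 319 and PAX7 1 among 505. In PAX2 there were 16 methylated among 1138 reads, all at 1 CG, at base 7 of the sequence, which is described below.

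All 8 PAX loci were almost free of methylation at every passage. Summed over the 973 CpGs, 277 of 96953 reads were methylated, 0.286% (Wilson 95% interval 0.254 to 0.321%). At passages 6, 7 and 8 the level was 0.293, 0.364 and 0.296%, at 11, 13 and 17 it was 0.264, 0.223 and 0.347%, and at 27 and 28 it was 0.270 and 0.232%. Of the CpGs, 903 (92.8%) had no methylated read in any library, and 43 of the other 70 had 1. Pooled over passages 6 to 8 the level was 0.313%, and over passages 27 and 28 it was 0.250%. The difference of -0.0627 percentage points had a Newcombe 95% interval of -0.143 to 0.0230, which includes 0. That reading turned when the 5 partly methylated CpGs described below, chosen after their values were seen, were left out. The levels were then 0.155 and 0.0920%, and the difference of -0.0630 points had an interval of -0.116 to -0.00589. By library the levels were then 0.123, 0.220 and 0.149% at passages 6, 7 and 8. They were 0.160, 0.112 and 0.170% at 11, 13 and 17, and 0.0905 and 0.0934% at 27 and 28. This interval pools libraries and leaves out the spread between them, so it cannot tell a late fall from that spread. Over the same libraries the mean of 122962 autosomal windows of 1 kb fell from 52.9% at passage 6 to 42.1% at passage 28, by 0.483 ± 0.0162 points per passage (SE, n = 8, two-sided exact permutation p = 2.48e-05). Reads here and below are summed over CpGs, so a read that covers several CpGs counts at each. Intervals cover counting error only, and such repeated counting or duplicate reads would make them too narrow.

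**Figure D1:**
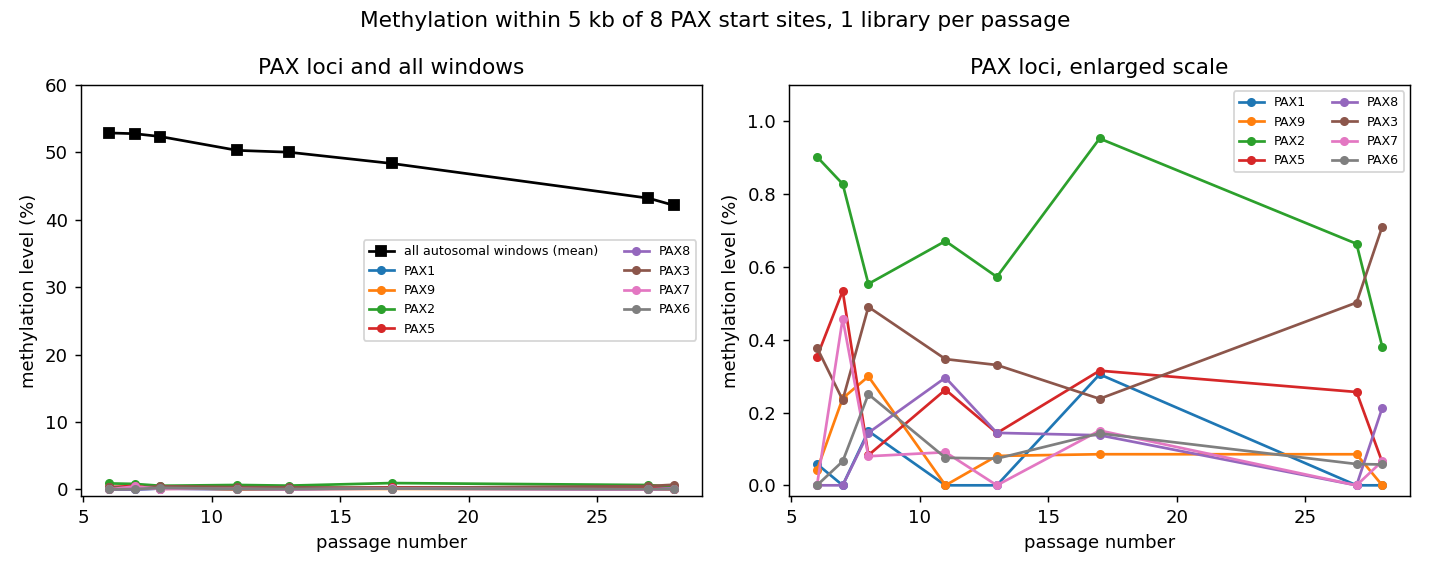
Methylation level (%) against passage number, 1 library per point. The left panel sets each PAX locus (CpGs within 5 kb of the start site) beside the mean of all autosomal 1 kb windows, which goes from 52.9 to 42.1%, and the right panel enlarges the PAX loci, which all stay under 1%.

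Coverage limited which parts of the loci could be read. Of the 80 windows of 1 kb around the start sites, 5 on each side and oriented by transcription, 23 had no CpG listed in all libraries and 10 had under 3 CpGs or under 30 reads in some library. The 47 windows used held between 30 and 1144 reads per library. PAX8 had almost no data upstream, its first CpG lying 8 bases before the start site, and PAX6 had none beyond 1443 bases downstream. PAX2 was read most densely, with 211 CpGs in 8 used windows. Windows at 0 methylated reads are therefore silent about the gaps between covered fragments.

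**Figure D2:**
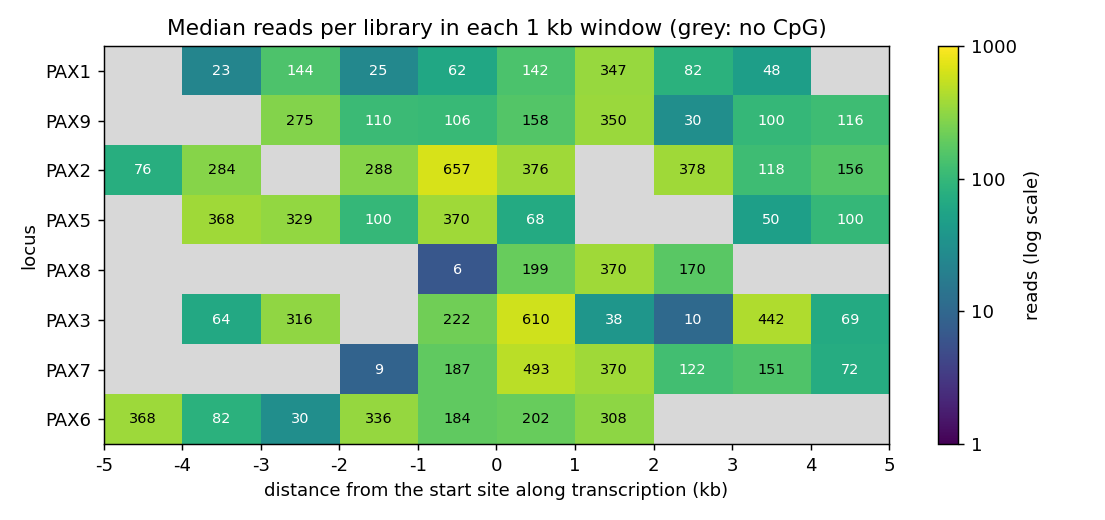
Median reads per library in each 1 kb window (colour on a log scale, number printed in the cell) by locus and distance from the start site. Grey cells had no CpG listed in all 8 libraries, 23 of 80 windows.

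The windows were low at the edges as well as at the start sites. All 47 stayed under 5% in every library, as did 23.8% of all 122962 windows, and 35 (74.5%) stayed under 1% in every library, against 15.6% of all windows. Of the 33992 windows with a mean under 10% at passages 6 to 8, 86.0% stayed under 5% and 56.5% under 1% in every library. The mean of that class went from 1.07% at passages 6 to 8 to 0.546% at passages 27 and 28. That of the 47 PAX windows went from 0.287 to 0.162%, so low levels were not particular to these loci. In 20 of the 47 no library had a methylated read. The highest level of any PAX window in any library was 4.35%. Windows with few CpGs are mostly methylated elsewhere in these data, with 4.98% of all windows of 3 to 9 CpGs under 1% in every library, whereas 8 of 12 PAX windows of that class were. Among windows of 35 or more CpGs the shares were 64.2% of all windows and 3 of 5 at the PAX loci. These shares are descriptions and were not tested.

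Neither a loss nor a gain was called at any PAX window. A quasi-binomial logistic model of the read counts against passage number was fitted to each window of the genome, limma moderated its dispersion, and p-values were adjusted over all tested windows (Benjamini-Hochberg). A call needed an adjusted p under 0.05 and a fitted change of at least 10 points between passages 6 and 28. Over the genome 31867 of 97906 tested windows were called as losses (32.5%) and 120 as gains (0.123%). Only 5 of the 47 PAX windows held the 10 methylated reads needed for the test, 0 of them was called in either direction, and 0 had an unadjusted p under 0.05. No PAX window reached 10% in any library, so none could lose 10 points. With limma on logit levels, which tested all 47, 0 was called and 1 had an unadjusted p under 0.05, the PAX3 window from 0 to 1 kb (fitted change of 0.796 points, adjusted p = 0.130). Gains of under 10 points could not be called, and windows with under 10 methylated reads were not in the main fit. Depth limits which low levels could be seen at all. At passages 27 and 28 together, a count of 0 would allow a level of up to 0.733% in the median PAX window, 0.199% in the deepest and 3.37% in the shallowest.

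Order of the loci by pooled level put PAX2 first at 0.700%, with library levels from 0.381 to 0.953%. PAX3 followed at 0.408% (0.234 to 0.711%) and PAX5 at 0.254% (0.0637 to 0.534%). The other 5 lay close together, PAX8 at 0.102%, PAX7 at 0.101%, PAX9 at 0.0942%, PAX6 at 0.0777% and PAX1 at 0.0659%, each with at least 1 library at 0. Library levels of each neighbouring pair in this order overlapped. PAX2 was highest in 7 libraries and PAX3 in 1, passage 28. Between passages 6 to 8 and passages 27 and 28, pooled, PAX2 differed by -0.286 points (Newcombe 95% interval -0.552 to -0.00185) and PAX3 by 0.241 points (-0.0280 to 0.559), and the intervals of the other 6 included 0. These intervals cover counting error only and leave out the spread between libraries, so they cannot set PAX2 apart from the other loci. At PAX2, passage 8 (0.553%) was below passage 27 (0.664%), and passage 17 was the highest (0.953%).

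PAX1 and PAX9, the skeletal pair, were among the loci with the lowest pooled levels, which lay close together, and PAX6 stood between them. At PAX1, a regulator of vertebral development on chromosome 20 (start site 21686297, plus strand), 5 of 7589 reads over 99 CpGs were methylated. No read was methylated among 1816 in its core, the part within 1000 bases of the start site, and 5 of 5773 were in its edges, the rest out to 5000 bases. Its window with the highest early level, from 1 to 2 kb downstream (21687297 to 21688296), had 4 methylated reads, 1 at passage 8 and 3 at passage 17. No read was methylated at PAX1 at passages 27 and 28, where 1849 reads allow a level of up to 0.162%. At PAX9, which is needed for teeth, on chromosome 14 (37126773, plus strand), 10 of 10613 reads over 90 CpGs were methylated. The core gave 1 of 2220 reads and the edges 9 of 8393. Its highest early window, from 3 to 4 kb downstream (37129773 to 37130772), read 2.63% at passage 7, 1.54% at passage 8 and 0% at the other 6.

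Of the kidney, B cell and thyroid subfamily, PAX2 carried the most methylated reads of all loci and PAX8 few. PAX2, required for kidney and optic nerve, lies on chromosome 10 (102505468, plus strand), and 141 of 20139 reads over 211 CpGs were methylated. The reads gathered in its core, at 1.25% (110 of 8805 reads), against 0.274% (31 of 11334) in its edges. A single window, the first kb upstream (102504468 to 102505467, 51 CpGs), held 110 of the methylated reads. Its levels were 2.40, 2.75 and 1.82% at passages 6, 7 and 8, 1.55, 1.59 and 2.72% at 11, 13 and 17, and 1.67 and 1.14% at 27 and 28. Each of passages 6 to 8 was above passages 27 and 28, and the pooled difference was -0.957 points (Newcombe 95% interval -1.82 to -0.0436, counting error only), while passage 17 was as high as the early ones. The fitted change over all 8 libraries, -0.877 points, did not pass (adjusted p = 0.276, quasi-binomial fit with limma's moderated dispersion). It was -0.522 points without passage 28 (adjusted p = 0.686, same fit). The adjoining window downstream of the start site had no methylated read in any library. The outermost upstream window, from 5 to 4 kb before the start (102500468 to 102501467, 9 CpGs), had the highest early level, with 4.07, 4.11 and 0% at passages 6, 7 and 8, then 4.35, 3.33 and 1.25% at 11, 13 and 17 and 2.27 and 1.41% at 27 and 28. Its fitted change was -1.73 points (adjusted p = 0.467, same fit), and 17 of its 19 methylated reads came from 1 CpG at -4205 bases (minus for upstream), covered by 34 reads in all.

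PAX5, the B lineage factor on chromosome 9 (37034476, minus strand), had 30 methylated among 11819 reads, with 0.246% in the core and 0.258% in the edges. All 21 edge reads lay upstream, 20 of them in the window from 4 to 3 kb before the start (37037477 to 37038476), whose fitted change of -0.404 points did not pass (adjusted p = 0.530, same fit). That change rested on single libraries, being 0.00426 points without passage 28 and -0.186 points without passage 7. In that window, the CpG at -3145 bases gave 7 of its 25 reads and that at -3150 bases 6 of 26. The highest early level at PAX5 was in the first kb downstream (37033477 to 37034476), 3.70% at passage 6 and 1.54% at passage 7, then 0% at passages 8, 11, 13 and 28 and at most 1.43% at passages 17 and 27. PAX8, a thyroid and kidney factor on chromosome 2 (114036498, minus strand), had 7 methylated among 6867 reads over 87 CpGs. Its highest early window, the first kb downstream (114035499 to 114036498), had 1 methylated read at each of passages 8, 11, 13 and 28.

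In the neural crest and muscle pair the pooled level of PAX3 was above that of PAX7, with overlapping library levels. PAX3, mutated in Waardenburg syndrome, lies on chromosome 2 (223163715, minus strand), and 62 of 15210 reads over 121 CpGs were methylated. PAX7, a marker of muscle satellite cells on chromosome 1 (18957500, plus strand), had 12 among 11847 over 132 CpGs. In PAX3 most of them again lay in the core, 45 of 7155 reads (0.629%), all of them in the first kb downstream (223162716 to 223163715, 39 CpGs). Levels there were 0.874, 0.378 and 0.566% at passages 6, 7 and 8, 0.566, 0.290 and 0.803% at 11, 13 and 17, and 1.09 and 1.72% at 27 and 28. The 2 latest libraries were the highest, and the fitted change of 0.813 points did not pass (adjusted p = 0.129, quasi-binomial fit with limma's moderated dispersion). It was 0.377 points without passage 28 (adjusted p = 0.615, same fit) and -0.156 points over passages 6 to 17 (adjusted p = 0.909, same fit). Larger changes were fitted without passage 6, at 1.07 points (adjusted p = 0.0547, same fit), and with at least 10 reads per CpG in every library, at 1.79 points (adjusted p = 0.0919, same fit). Neither passed. The highest early window, from 3 to 2 kb upstream (223165716 to 223166715), had 0.380, 0.612 and 1.19% at passages 6, 7 and 8, 0, 0.334 and 0% at 11, 13 and 17, and 0.576 and 0.328% at 27 and 28, and its fitted change was -0.143 points (adjusted p = 0.826, same fit). In PAX7 the highest early window, from 1 to 2 kb downstream (18958500 to 18959499), had all of its 6 methylated reads at passage 7.

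PAX6, the regulator of eye development on chromosome 11 (31832901, minus strand), had 10 methylated among 12869 reads over 124 CpGs, 3 in the core and 7 in the edges. Both placed RefSeq starts of PAX6, 1394 bases downstream and 1367 bases upstream, lie in the edges, so its core holds neither. Its library levels ran from 0% at passage 6 to 0.250% at passage 8 and 0.0572% at passage 28. The highest early window, from 4 to 3 kb upstream (31835902 to 31836901), had 1 methylated read at passage 8 and 1 at passage 13.

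Trends of single regions were tested only in the 5 cores and edges with at least 10 methylated reads, by an exact permutation test of the slope over all 40320 orders of the libraries, two-sided and not adjusted over these 5. The PAX3 core rose per passage by 0.0324 points with a standard error of 0.0113 (exact permutation p = 0.0228, r = 0.759, n = 8), with rho = 0.5 (exact permutation p = 0.216). That slope rested on the latest libraries: over passages 6 to 17 alone it was -0.00127 (r = -0.0307, exact permutation p = 0.956, n = 6), and without passage 28 it was 0.0161 (exact permutation p = 0.194, n = 7). It also fell short of 0.05 without passage 27 (0.0399, exact permutation p = 0.0740) or passage 7 (0.0306, exact permutation p = 0.0526). The PAX2 core had a slope of -0.0239 ± 0.0132 (SE, n = 8, exact permutation p = 0.125). The edges of PAX2, PAX3 and PAX5 had slopes of -0.00236, -0.00778 and -0.00599 points per passage (exact permutation p of 0.699, 0.365 and 0.462). The slope of the mean of all windows was far from these: the 5 differences from it lay between 0.459 and 0.515 points per passage (exact permutation p at most 7.44e-05, n = 8). Regions near 0% could not fall at that rate, so these differences and their p-values largely restate the slope of the mean of all windows. The same would be found for other windows that start near 0%, of which these data hold many.

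A large part of the methylated reads came from 5 single CpGs. These had at least 50 reads and at least 10% methylation over all libraries, a rule chosen after their values were seen, and they held 146 of the 277 methylated reads (52.7%). Without them the pooled level of the 8 loci was 0.136%, and PAX5 at 0.254% and PAX2 at 0.226% led the order while PAX3 stood at 0.0804%. The difference of PAX2 between passages 6 to 8 and passages 27 and 28 was then -0.117 points, with an interval that included 0 (-0.272 to 0.0529). The core of PAX2 then stood at 0.164% and that of PAX3 at 0.0433%. The slope of the PAX3 core without its CpG was 0.00830 (exact permutation p = 0.125, n = 8). The minimum of 50 reads left in place thinly covered CpGs of PAX5, at -3145 bases (7 of 25 reads) and -3150 bases (6 of 26). It also left in that of PAX2 at -4205 bases (17 of 34), and the order was not computed without them. With at least 5 reads per CpG in every library, the edges of PAX5 and of PAX2 each stood at 0.107%, against 0.258 and 0.274%.

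The most methylated lay at -405 bases from the PAX2 start site (chromosome 10, 102505063). Its levels were 54.2, 80.0 and 38.5% at passages 6, 7 and 8, 55.6, 63.6 and 66.7% at 11, 13 and 17, and 33.3 and 38.5% at 27 and 28, on 9 to 24 reads per library. Its pooled level was 53.6% (59 of 110 reads). The next CpG, 5 bases away, had 9 methylated among 130 reads (6.92%), and those 22 and 46 bases away had none among 209 and 203. Another, at -373 bases (102505095), the CG at base 7 of the PAX2 sequence shown above, had 16 methylated among 53 reads (30.2%), from 0% at passages 7 and 13 up to 50% at passage 8, on 4 to 14 reads. The third PAX2 site, at -693 bases (102504775), stood at 35.3, 28.6 and 23.1% at passages 6, 7 and 8, 7.14, 15.4 and 20% at 11, 13 and 17, and 16.7 and 9.09% at 27 and 28, on 10 to 17 reads, or 20.2% over all libraries. All 3 CpGs within 60 bases of it had no methylated read among 243. These 3 sites gave 87.3% of the methylated reads of the first upstream kb of PAX2.

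In PAX3 a CpG 757 bases downstream of the start site (chromosome 2, 223162958) gave 42 of the 45 methylated reads of its window. Its levels were 20.4, 8.70 and 15% at passages 6, 7 and 8, 10.3, 7.41 and 26.7% at 11, 13 and 17, and 26.7 and 32.3% at 27 and 28, on 15 to 49 reads. The 3 latest libraries were above the other 5, whereas its 6 neighbours within 60 bases had no methylated read among 777. The other PAX3 site, at -2321 bases (223166036), had 8 methylated among 65 reads (12.3%), from 40% at passage 7 to 0% at passages 11, 17 and 28, on 5 to 14 reads.

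None of these single CpGs passed the fit across the genome. With at least 10 reads in every library, 33712 of 90260 tested CpGs were called as losses (37.3%) and 330 as gains (0.366%). At the PAX loci 2 CpGs could be tested, 0 was called, and 0 had an unadjusted p under 0.05. The PAX3 CpG at 757 bases had a fitted change of 15.6 points (adjusted p = 0.142) and the PAX2 CpG at -693 bases a fitted change of -15.8 points (adjusted p = 0.324), both by the quasi-binomial fit with limma's moderated dispersion. With a minimum of 5 reads the PAX2 CpG at -405 bases could be tested too, and its fitted change was -18.5 points (adjusted p = 0.407, same fit). Omitting 1 library at a time moved the PAX3 change between 11.0 points without passage 28 (adjusted p = 0.473, same fit) and 21.3 points without passage 6 (adjusted p = 0.0538, same fit). The change of the PAX2 CpG at -693 bases lay between -9.28 points without passage 6 (adjusted p = 0.591, same fit) and -21.0 points without passage 27 (adjusted p = 0.304, same fit). These CpGs had 9 to 49 reads per library.

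**Figure D3:**
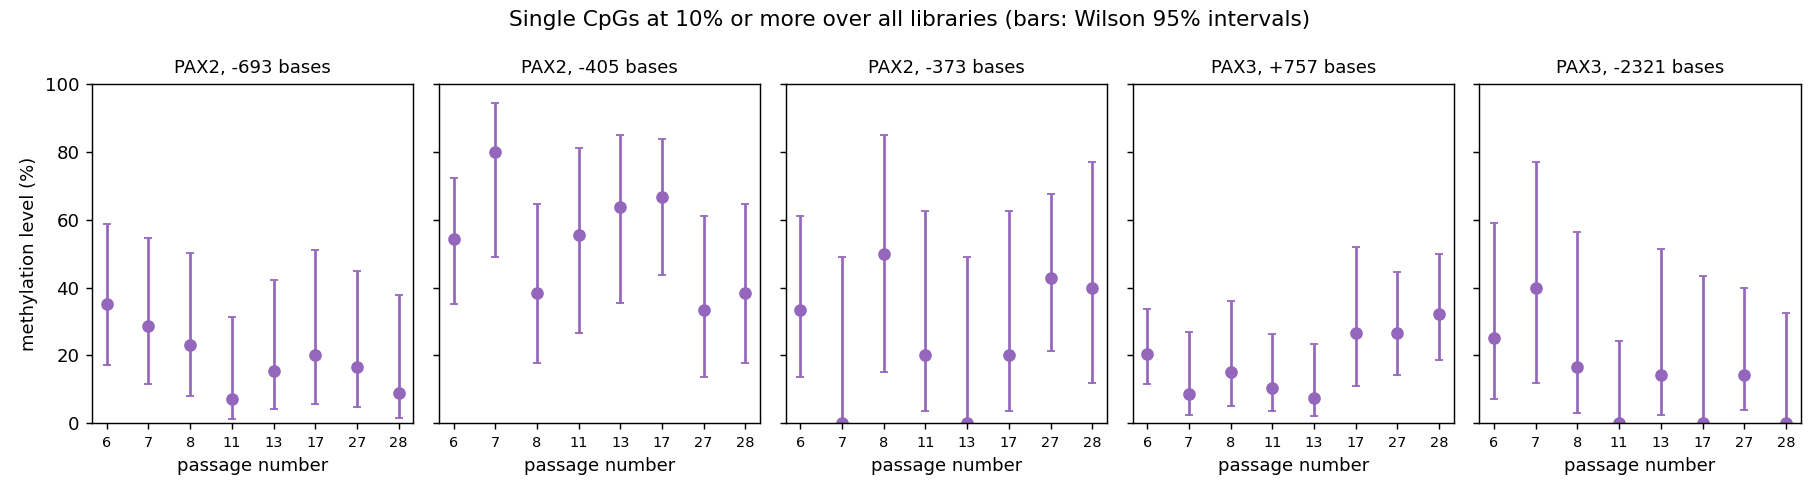
Methylation level (%) of the 5 single CpGs by passage, with distance from the start site in each panel title. Points are single libraries and bars Wilson 95% intervals on 4 to 49 reads, and the PAX2 CpG at -405 bases is the highest, with 33.3 to 80.0%.

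Such sites were also present elsewhere. Among 557986 autosomal CpGs with at least 50 reads whose 1 kb tile was otherwise under 2% methylated, 4652 (0.834%) had at least 10% methylation. At the PAX loci it was 5 of 791 such CpGs (0.632%). The 2 shares were not tested against each other.

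Low methylation continued beyond the 5 kb limit at several loci, and tiles that lost methylation lay farther out. Between 5.5 and 30 kb from the 8 start sites, a range chosen after the loci were seen, 63 tiles of 1 kb passed the same minimums, and 41 of them stayed under 1% in every library, beside 15.6% of all windows. By locus these were 11 of 14 tiles at PAX6, 9 of 10 at PAX3, 8 of 12 at PAX2, 5 of 8 at PAX9, 4 of 11 at PAX7, 3 of 4 at PAX5, 1 of 2 at PAX8 and 0 of 2 at PAX1. The tiles named below were chosen after their values were seen. Of the 63 tiles, 9 started at 20% or more, the nearest about 10 kb upstream of PAX7, 10.7 kb downstream of PAX9 and 12.0 kb upstream of PAX5. Of 15 tiles that could be tested, 4 were called as losses and 0 as gains, beside 32.5% of all tested windows called as losses.

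Upstream of PAX7 both methylated tiles fell. The nearer tile (chromosome 1, 18947001 to 18948000, 5 CpGs) stood at 49.3, 60.5 and 60.5% at passages 6, 7 and 8, 65.9, 43.2 and 46.7% at 11, 13 and 17, and 25.3 and 24.7% at 27 and 28, and fell by 33.1 points (adjusted p = 0.00177, quasi-binomial fit with limma's moderated dispersion). The tile 26.0 kb away (18931001 to 18932000, 17 CpGs) fell by 27.3 points (adjusted p = 5.4e-05, same fit), from 67.7% ± 2.86 (SD, n = 3) at passages 6 to 8 to a mean of 42.0% at passages 27 and 28. At PAX2 the tile 23 kb upstream (chromosome 10, 102482001 to 102483000) fell by 26.2 points (adjusted p = 0.00928, same fit), while that 18.0 kb upstream (102487001 to 102488000) read 88.3% ± 3.42 (SD, n = 3) early and 88.2% late, and its fitted change was -1.85 points (adjusted p = 0.747, same fit). The PAX6 tile 24.4 kb downstream (chromosome 11, 31808001 to 31809000) stood at 31.3, 11.2 and 11.8% at passages 6, 7 and 8, 11.3, 1.37 and 1.45% at 11, 13 and 17, and 0% at 27 and 28, and fell by 24.1 points (adjusted p = 6.23e-05, same fit). The PAX9 tiles 10.7 and 15.7 kb downstream had fitted changes of -14.2 and -15.9 points that did not pass (adjusted p of 0.204 and 0.167, same fit). A low tile 10 kb downstream of PAX7 (18967001 to 18968000) had 4.72% at passage 27 and 1.78% at passage 28, against at most 0.781% before, a fitted change of 2.69 points that did not pass (adjusted p = 0.0524, same fit).

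**Figure D4:**
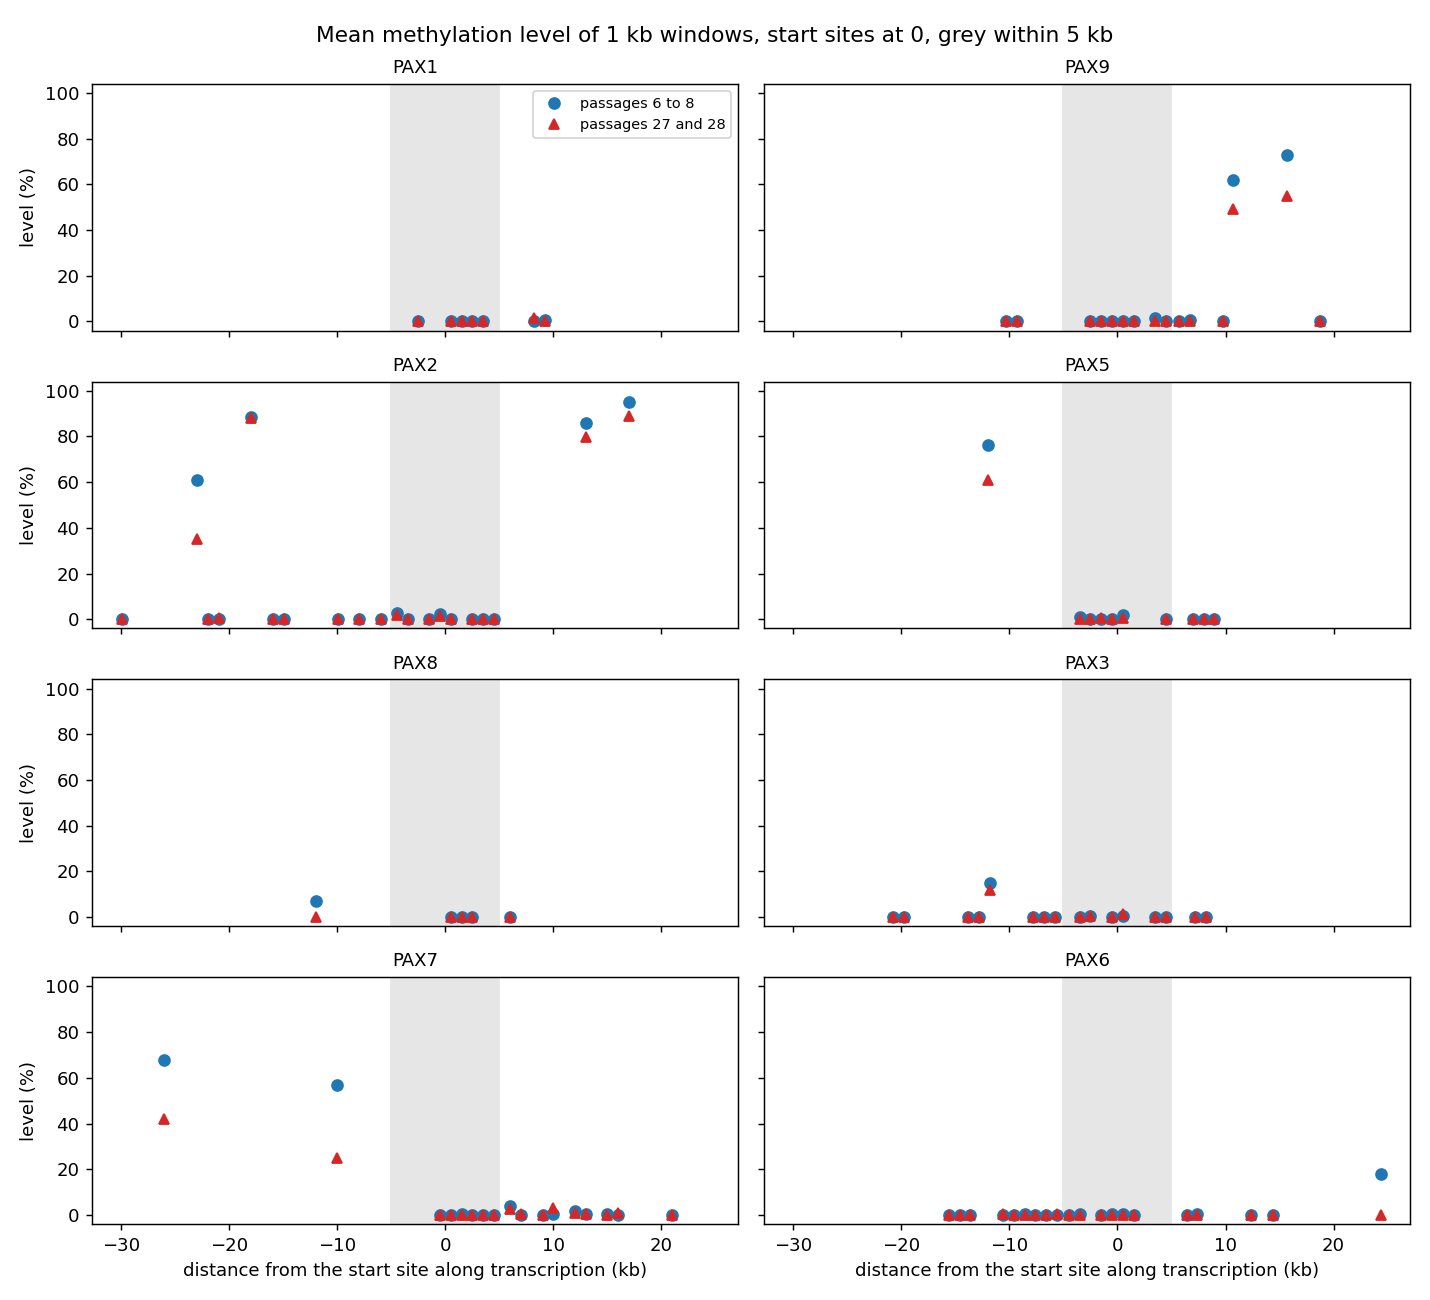
Mean methylation level (%) of 1 kb windows against distance from the start site along transcription (kb), for passages 6 to 8 (circles, mean of 3 libraries) and passages 27 and 28 (triangles, mean of 2). Inside the grey band of 5 kb every window lies under 5%, and the levels of 20% or more at passages 6 to 8 lie about 10 kb away or farther.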

How the data were processed

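CpG methylation was measured by RRBS in 8 libraries, per the labels' protocols, and CpG positions are in hg19, per the submitters' processing notes. For every CpG the authors gave a pair of read counts, methylated and total, which were used as deposited. A further score, the methylated share times 1000 in the deposited files, was left aside. Aligner, caller and any duplicate removal, not given in the sources used here, could shift these counts. Read counts summed over the listed CpGs ranged from 19898423 to 44599588 per library, and a read over several CpGs counts at each. Start sites came with the choice of members, which, like all lists and rules, was made with earlier results of these data known. Strands were taken from textbook knowledge. The rule for windows given in full took called ones and, per locus, the one with the highest mean over passages 6 to 8. The other tested windows and the tiles beyond 5 kb were added after their values were seen.

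CpGs listed in all 8 files were summed over 1 kb windows, counted from the PAX start sites and as fixed tiles elsewhere on autosomes. A window needed 3 CpGs and 30 reads in every library, and 10 methylated and 10 unmethylated reads to be tested. Quasi-binomial fits used limma 3.58.1 (R 4.3.3), dispersion not under 1, and an F test. They were also run on simulated windows, where any change put in was of 10 points or more. That run does not show whether smaller changes could be found. Single CpGs needed 10 reads in every library. Wilson and Newcombe intervals and exact permutation tests used Python 3.11.15 and scipy 1.17.1. The limit a count of 0 allows is 3 reads of the total. Since each passage has 1 library, p-values set a trend only against the spread of the libraries around it, which may be technical. The exact permutation test also treats the libraries as interchangeable, which need not hold if they come from 1 culture. Genes of the wider PAX network were not analysed here, as no hg19 annotation was used.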

Additional observations from a re-analysis of the deposited data

How the results depend on the processing

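The counts of PAX windows losing or gaining methylation and of PAX CpGs losing it stayed at 0 under all 47 alternatives. These covered coverage minimums, all listed CpGs, limma on logit levels and a log2 passage scale. They also covered other minimum changes, omission of each library and passages 6 to 17. With 20 reads per CpG, 0 PAX CpGs could be tested. For window losses the 0 was largely fixed in advance. No PAX window was above 4.35% in any library in the main setting, so a fall of 10 points was out of reach. In that setting only 5 PAX windows and 2 PAX CpGs were tested. All 87 fitted changes under alternatives stayed without a call, but 3 changed sign: PAX5 from 4 to 3 kb upstream to 0.00426 points without passage 28 (range on omission of 1 library -0.658 to 0.00426) and 0.0572 over passages 6 to 17, and PAX3 from 0 to 1 kb to -0.156 over passages 6 to 17. Over passages 6 to 17 the core slopes turned to 0.00276 at PAX2 and -0.00127 at PAX3. The PAX2 edge slope turned with equal weight per CpG (0.000384) and without passage 6 or 28 (0.00181 and 0.00229, range on omission of 1 library -0.00725 to 0.00229), that of PAX5 with 5 reads per CpG (0.00104), and that of PAX3 with a core of 500 bases (0.0140). The PAX3 core slope was 0.0102 (exact permutation p = 0.125, n = 8) with a core of 500 bases, and went from 0.0161 to 0.0399 on omission of passages 28 and 27. The PAX2 core slope passed 0.05 without passage 17 (-0.0266, exact permutation p = 0.0321, n = 7). The cause was not tested. Levels left their Wilson interval in 20 of 168 alternatives, most at PAX2, PAX3 and PAX5, for example 0.502% for the PAX2 edges with equal weight per CpG. The PAX7 edges were at 0% without passage 7. The share of all tested windows losing methylation depends on the set of CpGs and on depth, with 5589 of 11743 at 10 reads per CpG. No paired analysis was possible because no passage holds more than a lone library.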

Other observations

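In 3 instances methylated reads of 1 library sat on 3 CpGs close together at a PAX locus, where the other 7 libraries had no methylated read, while 1 to 3 further CpGs between them were unmethylated in that library too. At PAX7, all 6 methylated reads of passage 7 between 1806 and 1829 bases downstream were 2 at each of 3 CpGs, on 10 to 12 reads per CpG. At PAX1, passage 17 had 1 methylated read at each of 3 CpGs between 1313 and 1329 bases downstream, on 10 to 11 reads per CpG. At PAX2, passage 6 had 1 at each of 3 CpGs between 2279 and 2299 bases downstream, on 29 to 53 reads per CpG. The files give counts per CpG, so whether these come from the same DNA molecules cannot be read from them.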
